A study of Homo sapiens with 12 samples.

Results

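The metallothionein genes were followed in 2 human breast cancer cell lines that had been exposed, or not, to a plant extract. Members were the genes whose symbol in the deposited count table was MT1A, MT1E, MT1F, MT1G, MT1H, MT1M, MT1X or MT2A, and all 8 were found among the 19516 genes with a symbol. Polyadenylated RNA was sequenced from MDA-MB-231 cells, grown in DMEM, and HCC1937 cells, grown in RPMI 1640, both established lines from triple-negative breast tumours and both given as wild type in the labels. Each line was kept for 72 h either as a control or with an aqueous extract of the succulent plant Kalanchoe pinnata, at 140 µg/mL for MDA-MB-231 and 66 µg/mL for HCC1937. There were 3 libraries in each of the 4 groups, named here by the numbers in their titles: E1 to E3 (MDA-MB-231 control), E7 to E9 (extract-exposed MDA-MB-231), E25 to E27 (HCC1937 control) and E31 to E33 (extract-exposed HCC1937). The study set out to find genes related to cell migration that change with the extract. Line, medium and dose differ together and cannot be told apart, and each line is a single model. The labels do not say whether the libraries of a group came from separate cultures, so p-values measure only the spread between these libraries.

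Metallothioneins are small proteins rich in cysteine that bind zinc, copper and cadmium and buffer the free zinc of the cell. Their genes are switched on when zinc or cadmium activates the transcription factor MTF1, which binds short metal response elements in their promoters, and several also respond to glucocorticoids and to oxidative stress. In human cells MT2A is usually the most abundant form, while the MT1 genes are a tandem group of close copies that differ in how widely they are used.

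The 8 genes lie close together on chromosome 16 of GRCh38 in the GENCODE 29 annotation. They run from MT2A at chr16:56608199-56609497 through MT1E at chr16:56625475-56627112, MT1M at chr16:56632233-56633986, MT1A at chr16:56638666-56640087, MT1F at chr16:56657694-56660698, MT1G at chr16:56666731-56668065 and MT1H at chr16:56669814-56671129 to MT1X at chr16:56682424-56684196. MT1G lies on the minus strand and the other 7 on the plus strand. Every member has 3 exons in its principal transcript and a coding sequence of 186 bases, which holds 20 cysteine codons among the 61 codons before the stop. The coding sequences of the 4 members with more than 1 read are shown because they show how alike the counted copies are. Capitals mark the bases that differ from MT2A.
MT2A: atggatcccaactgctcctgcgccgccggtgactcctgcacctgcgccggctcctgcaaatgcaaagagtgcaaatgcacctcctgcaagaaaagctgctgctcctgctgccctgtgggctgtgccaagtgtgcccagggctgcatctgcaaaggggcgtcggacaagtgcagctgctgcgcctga
MT1X: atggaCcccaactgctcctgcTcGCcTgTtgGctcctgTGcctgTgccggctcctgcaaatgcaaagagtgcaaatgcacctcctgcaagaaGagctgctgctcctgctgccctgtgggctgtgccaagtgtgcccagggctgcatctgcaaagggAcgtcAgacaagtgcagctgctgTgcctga
MT1E: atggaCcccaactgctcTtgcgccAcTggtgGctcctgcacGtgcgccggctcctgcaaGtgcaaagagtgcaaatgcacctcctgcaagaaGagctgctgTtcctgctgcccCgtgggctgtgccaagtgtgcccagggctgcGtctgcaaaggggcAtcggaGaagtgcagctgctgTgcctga
MT1F: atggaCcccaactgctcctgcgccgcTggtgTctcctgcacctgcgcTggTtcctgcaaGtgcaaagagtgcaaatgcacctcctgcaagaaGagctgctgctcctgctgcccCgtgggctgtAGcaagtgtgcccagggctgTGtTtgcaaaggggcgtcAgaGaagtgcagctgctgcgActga
MT1X and MT1E each differed from MT2A at 14 bases, an identity of 92.5%, and MT1F differed at 16, an identity of 91.4%. Over all pairs of the 8 members the identity ranged from 88.7% to 95.2%. Each transcript was cut into all its stretches of 31 bases. Those that also occur in a transcript of another gene, pseudogenes included, were 48.1% of the stretches for MT1X, 15.3% for MT1E, 12.2% for MT2A and 8.33% for MT1F. Fewer were shared with another of the 8 members: 81 of 420 for MT1X, 46 of 674 for MT1E, 55 of 756 for MT2A and 48 of 660 for MT1F. Counts of close copies were estimated by Salmon, which divides reads that match several transcripts, so the division between members, MT1X most of all, is uncertain, and so is any share of their reads given to other copies and pseudogenes.

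RefSeq promoters were held for 3 of the 8 members, and the 250 bases before the RefSeq start of each were searched (GRCh38.p14, plus strand): chr16:56608334-56608583 for MT2A, chr16:56682220-56682469 for MT1X and chr16:56669564-56669813 for MT1H. In GENCODE 29 the MT2A gene starts 385 bases and the MT1X gene 46 bases upstream of the RefSeq start, so the whole MT2A window and the end of the MT1X window lie in the 5′ untranslated region of the GENCODE transcript. Letters are therefore given only for bases upstream of the GENCODE start: 204 for MT1X, at chr16:56682220-56682423, and all 250 for MT1H. They are shown because MT1X rose in HCC1937 while MT1H had 1 read in all. Capitals mark the core of the metal response element, TGCACNC or TGCGCNC on either strand.
MT1X promoter: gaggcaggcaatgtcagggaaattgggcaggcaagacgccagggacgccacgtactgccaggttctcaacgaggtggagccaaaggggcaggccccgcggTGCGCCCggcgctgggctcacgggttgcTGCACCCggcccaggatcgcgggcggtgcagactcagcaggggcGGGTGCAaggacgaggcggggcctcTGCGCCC
MT1H promoter: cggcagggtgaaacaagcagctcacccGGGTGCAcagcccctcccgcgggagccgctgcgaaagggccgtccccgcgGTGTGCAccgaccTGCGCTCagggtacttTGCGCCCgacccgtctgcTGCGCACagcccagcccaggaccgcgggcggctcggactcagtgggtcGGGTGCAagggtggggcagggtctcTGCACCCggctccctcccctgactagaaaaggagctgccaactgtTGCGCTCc
The core occurred 7 times in the MT2A window, 4 times in the MT1X window and 8 times in the MT1H window. Of 35116 promoter windows of the same length, 24.8% held at least 1 core, 0.37% held at least 4 and 0.0313% held at least 7. The antioxidant response element core TGACNNNGC, searched on both strands, occurred 1 time each for MT2A and MT1X and 0 times for MT1H, and 10.9% of all windows held it. The heat shock element core GAANNTTC was at 0 in the 3 windows and in 5.78% of all windows. No metal response match overlapped another match of any of these motifs. A match is a stretch of letters and not evidence of binding.

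Library totals ran from 16170346 to 31337261 estimated counts. E7 stood apart from E8 and E9: its rank correlation with them across genes was at most 0.967, against at least 0.9968 for every other replicate pair, and 10.7% of its counts were mitochondrial against 4.63% and 4.78% in E8 and E9 and 2.76% to 3.98% elsewhere. Tests of the members and counts of the gene lists in extract-exposed MDA-MB-231 are therefore given with and without E7. The spread between libraries (edgeR's biological coefficient of variation) was 0.294 in extract-exposed MDA-MB-231 and 0.0414 to 0.0451 in the other groups. The fit of all 12 libraries pools these groups, so its SEs for HCC1937 also carry the spread of extract-exposed MDA-MB-231. The labelled lines were checked on markers: the epithelial genes CDH1, KRT5 and GRHL2 had no reads in any MDA-MB-231 library and averaged 186, 58.8 and 102 counts per 1000000 (CPM) in HCC1937 controls, while VIM averaged 3735 CPM in MDA-MB-231 and 13.9 CPM in HCC1937 controls. SPARC (8.64 against 39.1 CPM) and CAV1 (155 against 412 CPM), listed for MDA-MB-231, were higher in HCC1937. The receptor genes ESR1, PGR and ERBB2, listed as absent from triple-negative cells, summed to 54.3 to 55.7 CPM in MDA-MB-231 controls. In HCC1937 controls their sum was 148 to 157 CPM. Immune markers summed to at most 7.59 CPM and endothelial markers to at most 24.5 CPM. DCN and ADIPOQ, which mark fibroblasts and adipocytes, were at 0. Of the other fibroblast markers, LUM averaged 11.2 ± 0.297 CPM in HCC1937 controls and 0.879 ± 0.616 CPM with extract (SD, n = 3 each), the 3 markers together summed to 10.9 to 11.5 and 0.415 to 1.58 CPM there, and PDGFRA was at 0. This fall came beside the metallothionein rise in HCC1937, and its part in it was not tested.

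Of the 8 metallothioneins, 4 had almost no reads in either line. MT1A, MT1G, MT1H and MT1M each had 1 read in 1 of the 12 libraries (E25, E1, E31 and E8), with or without extract, and did not pass the filter on low counts. At this depth 3 counts correspond to 0.0990 to 0.213 CPM, depending on the library, which bounds what a library at 0 could have missed by counting alone. MT1B, MT1HL1, the brain form MT3 and the squamous epithelial form MT4 were at 0 in every library.

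Reads came from MT2A (324422 in the 12 libraries), MT1E (22798), MT1X (20575) and MT1F (575), the 4 members that were tested. MT1F passed the filter through HCC1937 alone, since it had 3 to 9 reads in each MDA-MB-231 control library and 1 to 7 in each extract library. Per kilobase of transcript, the level of MT2A was 2146 CPM in MDA-MB-231 controls, against 435 for MT1X, 187 for MT1E and 0.389 for MT1F. In HCC1937 controls the same levels per kilobase were 243 for MT2A, 20.1 for MT1X, 7.57 for MT1E and 3.98 for MT1F. MT2A was thus the leading form in both lines, and the order of the 4 forms was the same. These lengths are those of the GENCODE transcripts. Counted from the RefSeq start, the MT2A transcript is 401 bases in place of 786 and its level 4205 CPM per kilobase in MDA-MB-231 controls and 476 in HCC1937 controls, which leaves the order as it was.

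**Figure D1:**
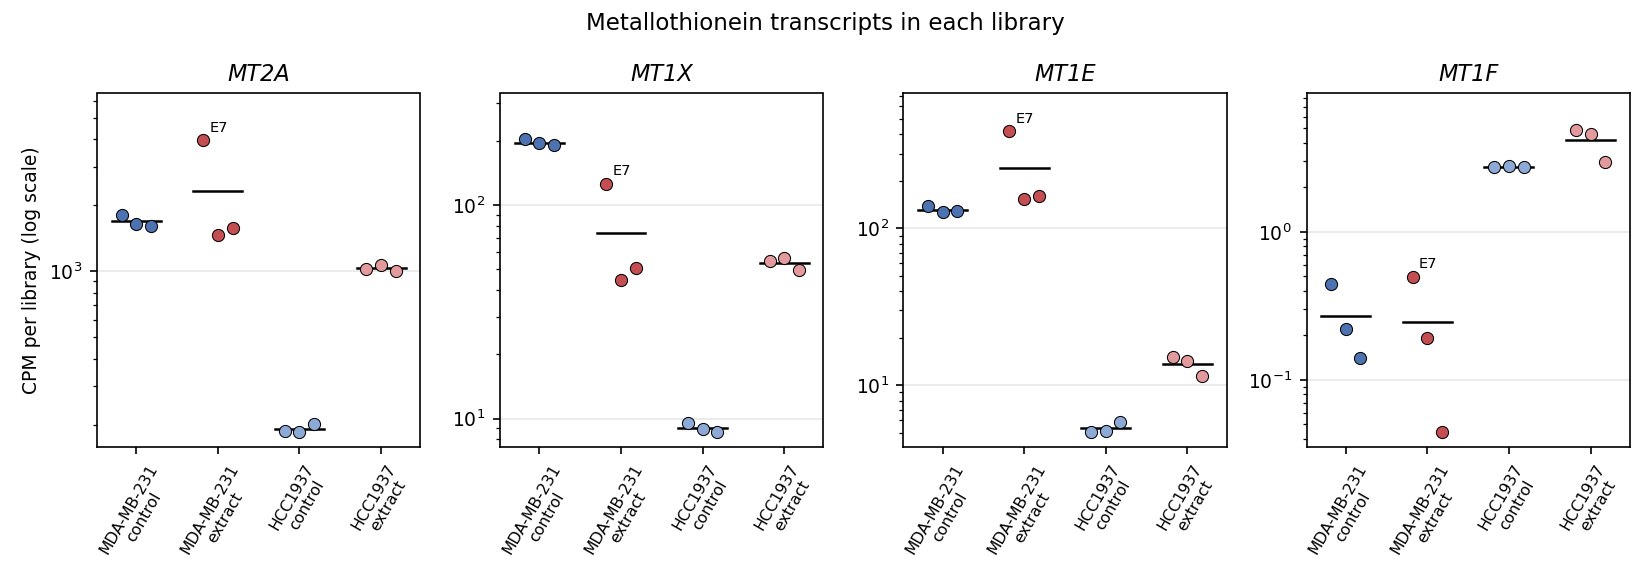
Points are CPM (scaled by TMM, log axis) of MT2A, MT1X, MT1E and MT1F in each of the 12 libraries, and horizontal bars are the means of 3 libraries. MT2A, MT1X and MT1E lie lowest in HCC1937 controls (means 191, 9.04 and 5.33 CPM) and E7 lies above E8 and E9 for all 4 genes.

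Without extract, the lines differed widely in metallothionein RNA. These are bulk libraries, in which fewer expressing cells and less RNA per cell cannot be told apart. MT2A measured 1810, 1646 and 1604 CPM in the MDA-MB-231 controls and 187, 185 and 201 CPM in the HCC1937 controls. MT1X measured 203, 194 and 190 CPM in the former and 9.49, 8.97 and 8.65 CPM in the latter. MT1E measured 139, 128 and 128 CPM against 5.07, 5.08 and 5.84 CPM. All 3 genes were lower in every HCC1937 control library than in any MDA-MB-231 control library. MT1F measured 0.444, 0.220 and 0.141 CPM in MDA-MB-231 and 2.73, 2.77 and 2.74 CPM in HCC1937. Since MT1F passed the filter through HCC1937 alone, its higher level there is given without a test. By edgeR's quasi-likelihood test with Benjamini-Hochberg adjustment over 14133 genes, HCC1937 controls against MDA-MB-231 controls gave log2 fold changes of -4.62 ± 0.36 (SE, adjusted p = 2.91e-07) for MT1E, -4.44 ± 0.35 (adjusted p = 2.65e-07) for MT1X and -3.14 ± 0.32 (adjusted p = 2.84e-06) for MT2A. The lines differed at most genes, with 75.3% of all tested genes called at an adjusted p under 0.05 (38.7% higher and 36.7% lower in HCC1937) and 88.3% not overlapping in CPM, so a called difference is not particular to these 3. Under every alternative run for this comparison the calls for MT2A, MT1X and MT1E stayed on the same side.

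In HCC1937, 3 of the 4 tested metallothioneins rose with the extract. MT2A measured 187, 185 and 201 CPM in the controls and 1025, 1068 and 1004 CPM with extract. It rose 5.40-fold (log2 2.43 ± 0.31, SE, n = 3 against 3, edgeR adjusted p = 2.19e-05), and no extract library came near a control. That SE is from the fit of all 12 libraries. In the fit of only the HCC1937 libraries the log2 fold change of MT2A was 2.49 ± 0.035. MT1X went from 9.49, 8.97 and 8.65 CPM to 54.8, 56.1 and 49.4 CPM. It rose 5.91-fold (log2 2.56 ± 0.32, edgeR adjusted p = 1.93e-05), and the groups lay far apart. MT1E went from 5.07, 5.08 and 5.84 CPM to 15.1, 14.3 and 11.4 CPM. Its rise was 2.55-fold (log2 1.35 ± 0.34, edgeR adjusted p = 0.00351), with every extract library above every control. MT1F measured 2.73, 2.77 and 2.74 CPM in the controls and 4.86, 4.58 and 2.98 CPM with extract, with E33 close to the controls. Its log2 difference of 0.59 ± 0.33 did not pass the test (edgeR adjusted p = 0.128), although the groups did not overlap. In the fit of only the HCC1937 libraries MT1F was called, at 0.64 ± 0.21 (edgeR adjusted p = 0.00589). Of all tested genes, 71.8% were called in this comparison, 32.7% as higher and 39.1% as lower, and 82.1% did not overlap in CPM. The calls for MT2A, MT1X and MT1E held under all 12 alternatives run for each. The median log2 fold change was 1.89 over the 4 members and -0.16 over all genes.

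Even at its highest in HCC1937, MT2A stayed below MDA-MB-231: the extract libraries of HCC1937 (1004 to 1068 CPM) lay under the MDA-MB-231 controls (1604 to 1810 CPM). For MT1X the HCC1937 extract libraries (49.4 to 56.1 CPM) overlapped the MDA-MB-231 extract libraries (44.5 to 126 CPM) and lay under the MDA-MB-231 controls. MT1E in HCC1937 with extract, at 13.6 ± 1.94 CPM, remained under the 132 ± 6.02 CPM of MDA-MB-231 controls (SD, n = 3 each). MT1F kept the opposite order, highest in HCC1937 with extract (4.14 ± 1.01 CPM), then HCC1937 controls (2.75 ± 0.0225 CPM), with the overlapping MDA-MB-231 groups at 0.268 ± 0.157 CPM (control) and 0.245 ± 0.231 CPM (extract).

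In MDA-MB-231 the members did not move together. MT1X, which rose in HCC1937, measured 203, 194 and 190 CPM in the controls and 126, 44.5 and 50.9 CPM with extract. It fell 2.67-fold (log2 -1.41 ± 0.30, edgeR adjusted p = 0.00145), and every extract library lay under every control. Without E7 the log2 fold change was -2.03 (edgeR adjusted p = 4.78e-21), and the call held under all 12 alternatives. MT1E measured 139, 128 and 128 CPM in the controls and 416, 154 and 162 CPM with extract, with E7 far above the other 2 extract libraries. MT1E rose 1.85-fold (log2 0.89 ± 0.31, edgeR adjusted p = 0.0240), with no overlap between the groups, and by a log2 fold change of 0.27 (adjusted p = 0.000323) without E7. The MT1E call was lost when library totals replaced TMM scaling (log2 0.51, adjusted p = 0.0835), when only the MDA-MB-231 libraries were fitted (0.88, adjusted p = 0.0904), and when any 1 of E1, E2 and E3 was left out.

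MT2A measured 1810, 1646 and 1604 CPM in the MDA-MB-231 controls and 3958, 1468 and 1571 CPM with extract. E7 lay above all controls while E8 and E9 lay below them, so the groups overlapped. The log2 difference of 0.47 ± 0.30 did not pass the test (edgeR adjusted p = 0.184). Its direction rests on E7: without that library MT2A was called lower (log2 -0.14, edgeR adjusted p = 0.00401), and without E8 it was called higher (log2 0.71, adjusted p = 0.0414). MT1F, with 0.444, 0.220 and 0.141 CPM in the controls and 0.498, 0.192 and 0.0447 CPM with extract, overlapped between the groups (log2 -0.33 ± 0.68, edgeR adjusted p = 0.698). Thus 1 tested member was called higher and 1 lower, where 33% of all tested genes were called higher and 32.8% lower (65.8% in all), and 67.6% did not overlap in CPM. The median log2 fold change of the 4 members was 0.07, and -0.61 without E7, against 0.0 over all genes. MT1F, near the floor here, helps set both member medians, so they are not a result for the family. Without E7, 5363 of 14360 genes were called higher and 5349 lower. The mitochondrial share of E7, given above, moved with its high MT2A, MT1X and MT1E values, and its part in them was not tested.

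The extract's effect was set against itself in the other line by the difference of the log2 fold changes, HCC1937 minus MDA-MB-231. For MT1X this difference was 3.98 ± 0.44 (SE, edgeR adjusted p = 5.88e-05), the sum of a fall in MDA-MB-231 and a rise in HCC1937. For MT2A it was 1.97 ± 0.42 (edgeR adjusted p = 0.00428). Without E7 these became 4.62 (edgeR adjusted p = 3.00e-24) and 2.60 (adjusted p = 8.42e-23). For MT1E the difference of 0.46 ± 0.45 did not pass the test (edgeR adjusted p = 0.477), but it was called without E7, at 1.104 (adjusted p = 7.38e-09). MT1F, at 0.91 ± 0.76, did not pass (edgeR adjusted p = 0.397). Of all tested genes 32.1% were called for this difference, 11.5% as higher and 20.6% as lower in HCC1937. Without E7, 3554 of 14360 genes were called higher and 4779 lower. The median of the 4 tested members was 1.44 against -0.16 over all genes, and 2.15 against -0.13 without E7. MT1F, near the floor in MDA-MB-231 and past the filter through HCC1937 alone, helps set both member medians. They are therefore not a result for the family. The difference rests on the same control libraries as the separate comparisons. For MT2A and MT1X a lower control level and a lower dose came with the rise in HCC1937, and these cannot be told apart from the line.

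**Figure D2:**
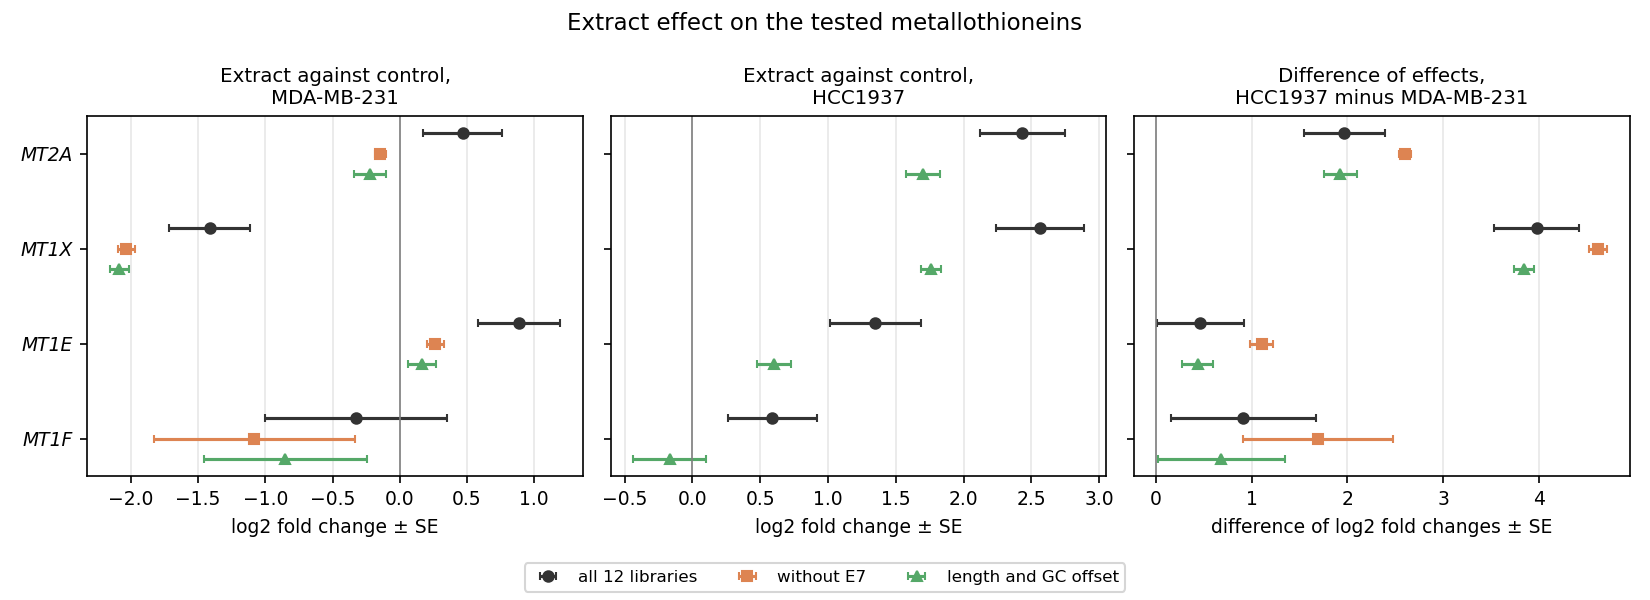
Log2 fold changes ± SE of the 4 tested metallothioneins from edgeR, for extract against control in each line and for the difference between the lines, from all 12 libraries, without E7, and with an offset for transcript length and GC content. MT1X lies left of 0 in MDA-MB-231 (-1.41) and right of 0 in HCC1937 (2.56) under every setting drawn, whereas MT2A in MDA-MB-231 and MT1F in HCC1937 change sides.

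Fold changes with the extract moved with transcript length and GC content, and the metallothionein transcripts are short and rich in GC (the 4 tested are 450 to 786 bases long). The 386 tested genes with transcripts of at most 1000 bases and over 50% GC had a median log2 fold change of 0.75 in MDA-MB-231 and 1.00 in HCC1937, against 0.0 and -0.16 over all genes. With a smooth offset for length and GC in each library these medians became 0.16 and 0.28. Under that offset the HCC1937 rises were 1.76 for MT1X, 1.70 for MT2A and 0.60 for MT1E on the log2 scale, all still called. MT1F in HCC1937 turned to -0.17, not called. In MDA-MB-231 the MT1X fall was -2.09 (edgeR adjusted p = 2.54e-10), MT1E was no longer called (0.17, adjusted p = 0.176) and MT2A was at -0.22 (adjusted p = 0.118). The size of the HCC1937 rises thus depends on this correction while their calls do not. The correction used the GENCODE lengths. With E7 left out and no offset, 402 short GC-rich genes had a median of 0.27 for MDA-MB-231 (0.0 over all genes). The 0.75 thus rests largely on E7, and the MT1E rise without E7 (0.27) did not stand above that median. For the difference between the lines without E7, the short GC-rich median was 0.67 (-0.13 over all genes). The members were at 4.62 (MT1X), 2.60 (MT2A), 1.69 (MT1F, not called) and 1.104 (MT1E). Scaling by library totals shifted the median of all genes to -0.26 in MDA-MB-231 and -0.61 in HCC1937. The calls then split into 3233 higher and 5651 lower in MDA-MB-231, in place of 4667 and 4636, and into 2877 and 7023 in HCC1937, in place of 4625 and 5522. Under that scaling MT2A and MT1X still rose in HCC1937 (log2 1.98 and 2.11).

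Ratios between members within a library do not depend on scaling, and E7 lay with its replicates on them. In MDA-MB-231 there were 1.46, 1.52 and 1.48 MT1X counts per MT1E count in the controls and 0.303, 0.290 and 0.315 with extract. In HCC1937 the same ratio was 1.87, 1.77 and 1.48 in the controls and 3.64, 3.91 and 4.34 with extract. Control libraries of the lines overlapped, while with extract the ratio was 4.92-fold lower in MDA-MB-231 and 2.33-fold higher in HCC1937, without overlap in either line. MT2A counts per MT1X count were 8.92, 8.47 and 8.42 in MDA-MB-231 controls and 31.4, 33.02 and 30.8 with extract, a 3.69-fold difference with no overlap. In HCC1937 they were 19.8, 20.6 and 23.2 in the controls and 18.7, 19.0 and 20.3 with extract, so MT2A and MT1X kept close to a common ratio there. MT2A counts per MT1E count ran from 12.5 to 13.1 in MDA-MB-231 controls, from 9.52 to 9.72 with extract, from 34.4 to 37.0 in HCC1937 controls and from 68.1 to 88.2 with extract. With 3 libraries against 3 the two-sided exact permutation test cannot go below p = 0.1, which is the value for each ratio whose groups did not overlap (0.129 after Benjamini-Hochberg adjustment over 9 ratio comparisons). The copies share sequence, so a ratio shows unequal change between members and not which of them changed.

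**Figure D3:**
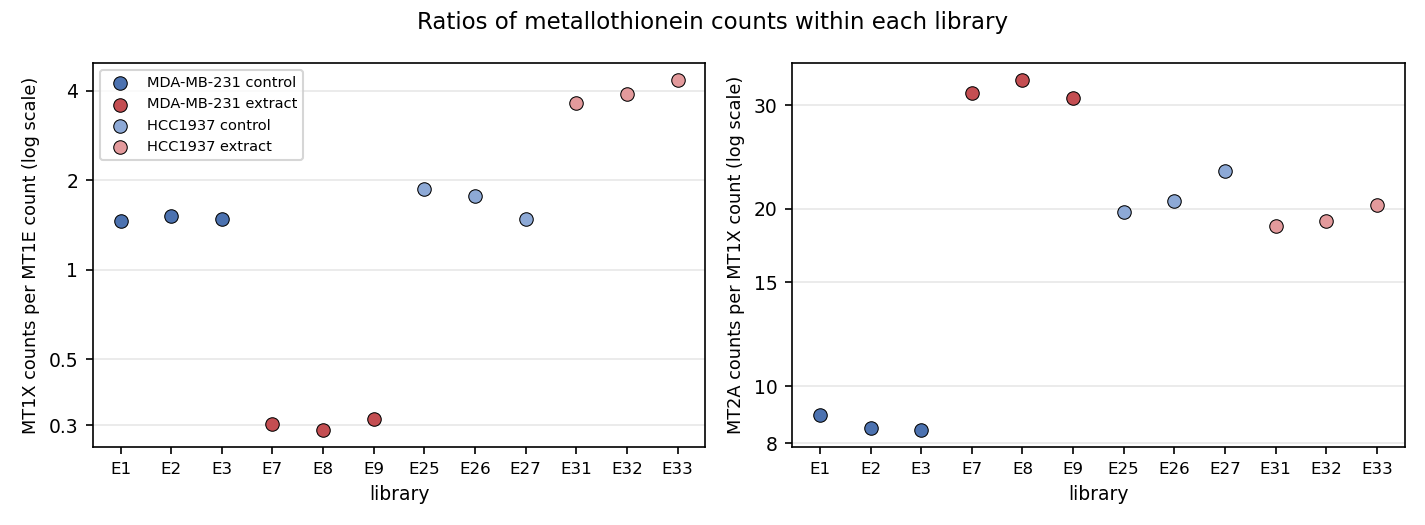
Points are the number of MT1X counts per MT1E count (left) and MT2A counts per MT1X count (right) in each library, on log axes. The MDA-MB-231 extract libraries lie at 0.290 to 0.315 on the left, under all others, and at 30.8 to 33.02 on the right, above all others.

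The counts of all 8 members were also summed, which does not depend on how reads were divided among the 8, though it can depend on reads shared with other copies and pseudogenes. The sum was 2152, 1968 and 1923 CPM in MDA-MB-231 controls, 4500, 1666 and 1784 CPM with extract, 205, 202 and 218 CPM in HCC1937 controls and 1100, 1143 and 1068 CPM with extract. Apart from E7, the MDA-MB-231 extract libraries lay under their controls, while the HCC1937 extract libraries lay above theirs and under every MDA-MB-231 library. As a share of the library the sum was 0.241%, 0.221% and 0.215% in MDA-MB-231 controls and 0.343%, 0.164% and 0.176% with extract, so that E8 and E9 lay under the controls and E7 above them. In HCC1937 it averaged 0.0242% in controls and 0.0937% with extract. MT2A held 83.7% of the sum in MDA-MB-231 controls, 88.0% with extract, 91.8% in HCC1937 controls and 93.6% with extract. MT1X held 9.73% and 2.77% in MDA-MB-231 and 4.35% and 4.84% in HCC1937, without and with extract. MT1E held 6.54% and 9.17% in MDA-MB-231 and 2.56% and 1.23% in HCC1937, without and with extract.

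Genes that move or sense the metals bound by metallothioneins were read beside the members. MTF1, the zinc-sensing activator of metallothionein genes, averaged 31.99 ± 2.77 CPM in MDA-MB-231 controls and 23.8 ± 10.9 CPM with extract (SD, n = 3 each; log2 -0.41, edgeR adjusted p = 0.188). In HCC1937 it averaged 20.04 ± 2.08 and 13.2 ± 0.104 CPM (log2 -0.61, edgeR adjusted p = 0.0602). MTF1 was called lower in MDA-MB-231 without E9 (log2 -0.71, adjusted p = 0.0303) but measured -0.10 without E7 (adjusted p = 0.355). In HCC1937 MTF1 was called lower with library totals (-1.06) and in the fit of only the HCC1937 libraries (-0.56). The plasma membrane zinc exporter SLC30A1, itself a classic MTF1 target, fell in MDA-MB-231, where it averaged 69.8 ± 2.16 CPM in controls and 38.0 ± 2.99 CPM with extract (log2 -0.88, edgeR adjusted p = 2.04e-06). It fell in HCC1937 too, at 52.0 ± 2.84 and 18.1 ± 0.486 CPM (log2 -1.52, edgeR adjusted p = 1.95e-08). With the length and GC offset SLC30A1 turned to 0.65 and 0.18, so its direction depends on that correction. With the offset SLC30A1 was not called in HCC1937 (edgeR adjusted p = 0.0712). Its relation to the MT2A and MT1X rises there was not tested.

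Counts of each gene list below, from all 12 libraries without the offset, stand beside the shares of all genes called higher and lower. These were 33% and 32.8% in MDA-MB-231 and 32.7% and 39.1% in HCC1937. Without E7, 5363 of 14360 genes were called higher and 5349 lower in MDA-MB-231. With the offset, the calls over 14054 genes were 5460 higher and 3853 lower in MDA-MB-231, and 5352 and 4330 in HCC1937. Of 7 tested zinc exporters, 1 was called higher and 4 lower in MDA-MB-231 with and without E7 (median log2 -0.85, and -0.74 without it), and 7 lower in HCC1937 (median -1.52). The offset turned both medians, to 0.65 and 0.18, with 5 higher and 1 lower in MDA-MB-231 and 3 higher and 2 lower in HCC1937. SLC30A9 led both, falling from 63.5 to 21.9 CPM and from 71.6 to 16.6 CPM. The SLC30A9 call, with the offset, was lost in MDA-MB-231 (log2 -0.04, edgeR adjusted p = 0.695) and was -0.47 in HCC1937. Of 11 zinc importers, 5 were called higher and 3 lower in each line, and 6 higher and 3 lower in MDA-MB-231 without E7 (median log2 0.55 in place of 0.32). SLC39A10 fell in both lines (37.5 to 10.7 CPM in MDA-MB-231, 70.2 to 11.6 CPM in HCC1937), by log2 -0.23 and -0.86 with the offset. SLC39A1 rose in both (145 to 245 CPM and 205 to 487 CPM).

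Of 8 genes listed as metal or stress sensors, 2 were called higher and 4 lower in MDA-MB-231 (median log2 -0.73), and 3 higher and 4 lower in HCC1937 (median -0.78). Without E7 the MDA-MB-231 counts were 3 and 4 (median -0.43), and with the offset 3 and 3 (median 0.14), with 3 and 1 in HCC1937. NFE2L2, which encodes the oxidative stress factor NRF2, fell from 154 to 48.8 CPM (log2 -1.66) and from 58.7 to 12.3 CPM (log2 -2.26), and KEAP1, which encodes its inhibitor, rose from 28.8 to 98.1 CPM and from 89.8 to 213 CPM. HSF1, the heat shock factor, rose from 120 to 271 CPM and from 255 to 717 CPM. MTF2, a Polycomb partner named for metal response elements, fell from 47.9 to 10.8 CPM and from 35.7 to 11.9 CPM. Under the offset the MTF2 fold change was -0.88 in MDA-MB-231, and its call was lost in HCC1937 (log2 -0.03, edgeR adjusted p = 0.806).

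NRF2 target genes were called higher in 11 of 20 and lower in 2 in MDA-MB-231 (median log2 0.41), and higher in 10 and lower in 7 in HCC1937 (median 0.57). Without E7 the MDA-MB-231 counts were 12 and 3. With the offset they were 15 and 2 in MDA-MB-231 and 13 and 1 in HCC1937. All but 1 of the 7 lower calls in HCC1937 thus depend on that correction. OSGIN1, an oxidative stress growth inhibitor, rose from 20.9 to 57.7 CPM and from 3.19 to 25.6 CPM. SLC7A11, the cystine importer, fell in both lines (161 to 40.7 CPM and 58.0 to 12.5 CPM), but the offset turned it to a log2 fold change of 0.22 in MDA-MB-231 and ended its call in HCC1937 (-0.16, edgeR adjusted p = 0.0502).

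Copper genes were more often called higher than lower in both lines, 9 of 13 against 1 in MDA-MB-231 (median log2 0.85) and 8 against 1 in HCC1937 (median 0.59). Without E7 the MDA-MB-231 counts were 9 and 3 (median 0.32), and with the offset 9 and 2, with 10 and 3 in HCC1937. SCO2, a mitochondrial copper chaperone, rose from 0.620 to 6.54 CPM and from 7.92 to 31.3 CPM. SLC31A1, the copper importer, rose from 48.9 to 77.8 CPM and from 48.2 to 72.4 CPM, and the SLC31A1 call in HCC1937 was lost with library totals (log2 0.13, edgeR adjusted p = 0.455). ATP7A, the copper-exporting ATPase, fell in both lines (17.1 to 5.18 CPM and 19.0 to 3.60 CPM), but the offset turned it to a log2 fold change of 0.021 in MDA-MB-231. For the difference between the lines 0 of the 13 were called higher and 2 lower in HCC1937, beside the 11.5% and 20.6% of all genes. Without E7 the counts were 5 higher and 3 lower, beside 3554 and 4779 of 14360 genes.

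Glucocorticoid target genes, listed because some metallothioneins carry glucocorticoid response elements, also moved apart between the lines. Of 9 tested, 3 were called higher and 5 lower in MDA-MB-231 (median log2 -0.51), and 4 higher and 2 lower in HCC1937 (median 0.35). Without E7 the MDA-MB-231 counts were 4 and 5 (median -0.79). With the offset the counts were 3 and 5 in MDA-MB-231 (median -0.93) and 5 and 1 in HCC1937 (median 0.90). For the difference between the lines 7 of 9 were called higher and 1 lower (median 1.77), beside the 11.5% and 20.6% of all genes. Without E7 the counts were 7 and 2 (median 1.88), beside 3554 and 4779 of 14360 genes. PER1, a clock gene, fell from 383 to 53.7 CPM in MDA-MB-231 (log2 -2.83) and rose from 14.8 to 30.6 CPM in HCC1937 (log2 1.05). DUSP1, a phosphatase of MAP kinases, fell from 1079 to 445 CPM (log2 -1.28) and rose from 17.5 to 48.9 CPM (log2 1.49). SGK1, a kinase, rose in both lines, from 20.3 to 28.96 CPM (log2 0.52) and from 7.69 to 45.1 CPM (log2 2.55). KLF9 fell in MDA-MB-231 (79.1 to 10.3 CPM) and was barely present in HCC1937, at 0.229 and 0.218 CPM. In controls, 8 of the 9 were called lower in HCC1937, where 36.7% of all tested genes were.

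**Figure D4:**
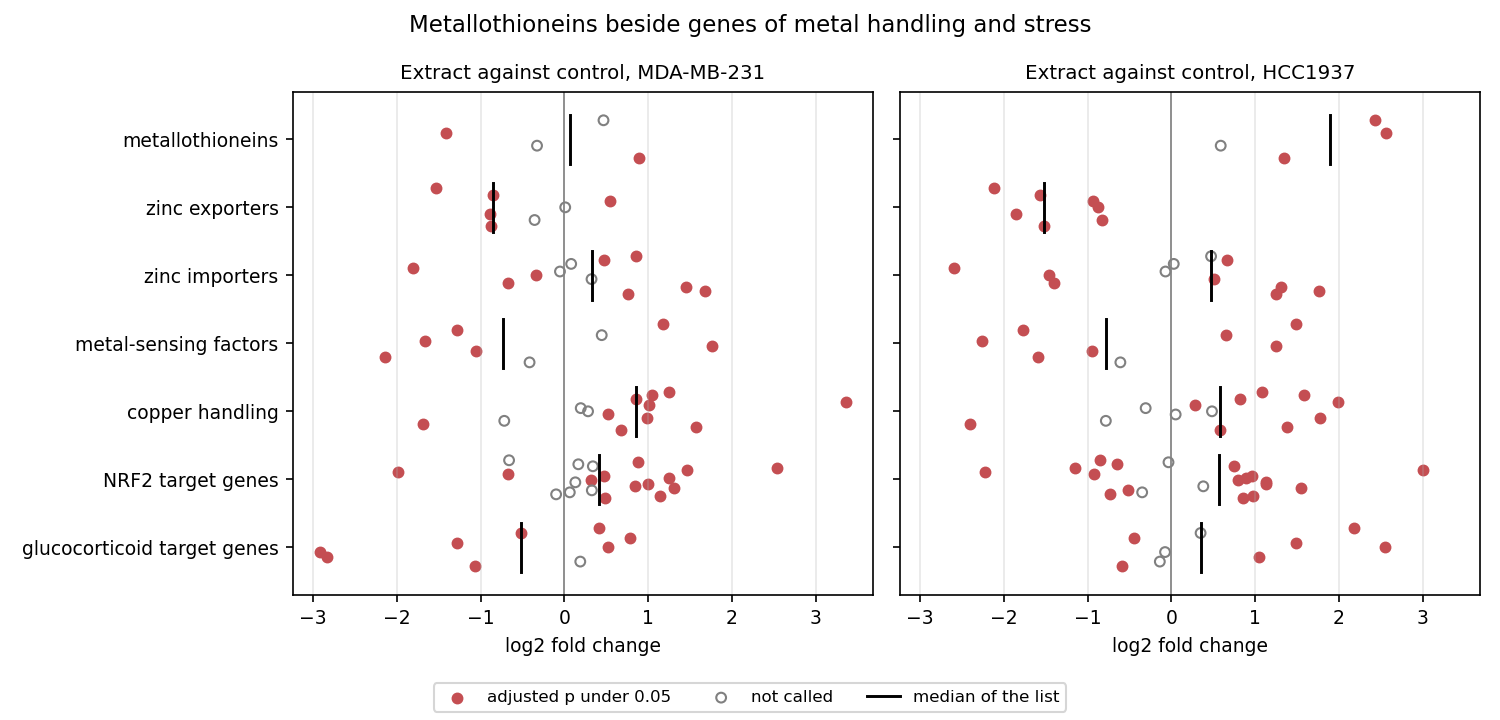
Log2 fold changes of every tested gene of each list, for extract against control in MDA-MB-231 (left) and HCC1937 (right), with filled points for an edgeR adjusted p under 0.05 and a bar at the list's median. The metallothionein median lies at 0.07 on the left and 1.89 on the right, and the zinc exporter medians at -0.85 and -1.52. MT1F, near the floor in MDA-MB-231, helps set the metallothionein median on the left.

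Among 10832 other genes averaging 5 CPM or more, those whose log2 CPM followed the summed metallothioneins most closely over the 12 libraries were CD44 (Pearson r = 0.996), PHLDA2 (0.994), C9orf40 (0.994), PEBP1 (0.991) and NFKBIA (0.989). The libraries of a group share line and treatment, so these values describe the shape over 4 groups and carry no p. CD44, an adhesion receptor, averaged 629, 634, 338 and 541 CPM in MDA-MB-231 control and extract and HCC1937 control and extract. PHLDA2, an imprinted growth regulator, averaged 136, 207, 9.61 and 72.4 CPM in the same order. NFKBIA, the inhibitor of NF-kappa-B, averaged 113, 139, 52.9 and 99.1 CPM.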

How the data were processed

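Per the submitters' processing notes, reads were checked with FastQC 0.12.1, trimmed with fastp 0.23.4 and quantified with Salmon 1.10.3 (GRCh38). For the annotation release and the step from transcripts to genes, nothing is given in the sources used here. The authors deposited expected counts (estimated counts per gene, 52.8% of values not whole), which were rounded. Per the labels' protocols, messenger RNA was taken with poly-T beads although the kit named is for total RNA. Groups came from the titles, because the cell line field counts upward from row to row. One model with 4 groups was fitted to the 12 libraries in R 4.3.3 with edgeR 4.0.16 (TMM, filterByExpr, quasi-likelihood F test, Benjamini-Hochberg over 14133 genes, threshold 0.05). CPM used TMM-scaled totals. Alternatives were DESeq2 1.42.0, RLE factors, library totals, no filter, an offset for length and GC (mgcv 1.9.3), only the libraries compared, and each library left out. The script was tested on simulated data with the same small spread in every library. No simulated library stood apart as E7 does, so that case was not covered. The members and gene lists were chosen with earlier results of these data known. Ratios between members were compared after their values had been seen. Named were all members, MTF1, SLC30A1, at most 4 called genes of smallest p per list and comparison, and the 5 genes most alike. No library pair agreed within sampling noise (chi-square per degree of freedom at least 2.17). Values after ± are SEs of the fits or SDs between libraries, and both carry the spread between libraries. Each edgeR SE was the size of the log2 fold change divided by the square root of its F statistic. It therefore restates the test and is not a separate estimate of error. The floors cover counting error only.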

Additional observations from a re-analysis of the deposited data

Results flagged for a closer look

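The effect of the extract differed between the lines for 2 metallothioneins by the test of the difference itself (edgeR quasi-likelihood, 12 libraries). For MT1X the difference of log2 fold changes, HCC1937 minus MDA-MB-231, was 3.98 (4.62 without E7), and MT1X was higher with extract in 3 of 3 HCC1937 libraries and lower in 3 of 3 MDA-MB-231 libraries. For MT2A it was 1.97 (2.60 without E7), with 3 of 3 HCC1937 extract libraries above all controls and MDA-MB-231 libraries on both sides. Line, medium and dose cannot be told apart. The test for a single outlying value needs 4 libraries or more and was not run on groups of 3.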

How the results depend on the processing

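No paired analysis was possible because no replicate number is shared between groups. Of 211 values of tested metallothioneins under alternatives, 196 kept their direction and their side of the threshold. Another 4, uncalled on both sides, changed sign: MT2A in MDA-MB-231 (-0.22) and MT1F in HCC1937 (-0.17) with the offset, and MT1F in MDA-MB-231 without E1 (0.25) and without E9 (0.20). Among the 196 were 12 values of MT1F between the controls. That comparison is given above without a test because of the filter, so these 12 say nothing on stability. MT1E in MDA-MB-231 lost its call with library totals (0.51), the length and GC offset (0.17) and the fit of only the libraries compared (0.88), and ranged from 0.27 to 1.13 when libraries were left out in turn. MT2A in MDA-MB-231 ranged from -0.14 (without E7) to 0.71 when libraries were left out in turn, and MT1F in HCC1937 was called only in the fit of the libraries compared (0.64). For the difference between the lines, MT1E was called with the offset (0.44) and ranged from 0.22 to 1.104 when libraries were left out, and the genes called, 4538 in all, ranged from 3688 to 8333 (without E7). The calls for that difference split into 1630 higher and 2908 lower, 2585 and 3016 with the offset, 2042 and 2313 with RLE factors, and 1049 and 3546 with library totals. The mean summed level became 2257, 242 and 937 CPM with library totals in MDA-MB-231 controls, HCC1937 controls and HCC1937 extract. It became 1818, 199 and 1050.3 CPM in those groups without MT1X, and 328, 318, 17.1 and 71.2 CPM in the 4 groups without MT2A. The offset turned SLC30A1 (0.65 in MDA-MB-231, 0.18 in HCC1937, 0.10 between controls), SLC30A7 (1.16 and 0.40), SLC30A6 (0.76 in HCC1937), ATP7A (0.021) and SLC7A11 (0.22) in MDA-MB-231, and MTF2 between controls (0.11). The cause of these shifts was not tested. Depth limits MT1F in MDA-MB-231, at 1 to 9 reads a library.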
